A study of Mus musculus with 9 samples.

Results

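The transcripts of 10 lipid droplet genes were followed in the livers of 9 male C57/BL WT mice. The genes were chosen by symbol from the 17846 genes listed for every liver. They comprise the coat genes Plin2, Plin4 and Plin5, the fusion and remodelling genes Cidea, Cideb and Cidec, the lipase genes Pnpla2 and Pnpla3, the lipase inhibitor gene G0s2 and the droplet enzyme gene Hsd17b13. Control mice (3) ate a normal diet and stayed sedentary. NASH mice (3) ate the Ath diet, which holds cholesterol and cholate, for 20 weeks and stayed sedentary. NASH+Exercise mice (3) ate the same diet and ran on a treadmill for the last 8 weeks, after 12 weeks of diet, from 20 weeks of age. All mice were fasted overnight before the liver was taken, and each library came from 1 mouse. No group ate the normal diet and was trained, so training was observed only on the Ath diet.

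A lipid droplet is a store of triglyceride and cholesteryl ester inside a membrane monolayer. Perilipins coat that surface and limit the access of lipases. CIDE proteins sit at the contacts between droplets, where they pass lipid from small droplets to large ones. ATGL, the product of Pnpla2, takes the first fatty acid off triglyceride. CGI-58, the product of Abhd5, activates it, and the G0S2 protein inhibits it. In hepatocytes many of these genes are transcribed with the help of PPAR alpha during fasting, and several of their proteins accumulate when the liver stores fat.

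Of the 10 genes, 9 passed the filter on low counts and were tested. On the Ath diet, the transcripts of Plin2, Plin5, Cidec and G0s2 fell, by 2.93-fold to 16.0-fold, and that of Pnpla3 rose 2.41-fold from a low level. Plin4, Cideb, Pnpla2 and Hsd17b13 did not pass the test, whose thresholds were 0.05 for the adjusted p and 1 for the size of the log2 fold change. Of all genes tested, 3.03% were called lower and 15.3% higher in that comparison. Between NASH+Exercise and NASH, 0 of 9 passed the test, and of all genes 0.0367% passed it as lower and 0.103% as higher.

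The sequence just before each of the 5 genes called in NASH against Control is shown here. Each is read on the gene's own strand, 5′ to 3′, from the RefSeq promoter table of GRCm38.p6 and ends where the RefSeq gene begins. Capitals mark AGGTCA on either strand, the hexamer of which PPAR alpha and RXR bind a pair. Plin2 is shown at chr4:86670218-86670309 on the minus strand, Plin5 at chr17:56117607-56117798 on the minus strand, and Cidec at chr6:113435761-113436010 on the minus strand. G0s2 is shown at chr1:193273189-193273438 on the minus strand and Pnpla3 at chr15:84167566-84167775 on the plus strand.
Plin2: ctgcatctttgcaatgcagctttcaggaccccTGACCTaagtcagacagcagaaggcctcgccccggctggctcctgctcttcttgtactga
Plin5: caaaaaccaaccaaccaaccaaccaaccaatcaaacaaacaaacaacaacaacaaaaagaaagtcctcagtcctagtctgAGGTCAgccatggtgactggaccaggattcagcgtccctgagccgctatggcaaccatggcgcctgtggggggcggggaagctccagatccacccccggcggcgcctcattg
Cidec: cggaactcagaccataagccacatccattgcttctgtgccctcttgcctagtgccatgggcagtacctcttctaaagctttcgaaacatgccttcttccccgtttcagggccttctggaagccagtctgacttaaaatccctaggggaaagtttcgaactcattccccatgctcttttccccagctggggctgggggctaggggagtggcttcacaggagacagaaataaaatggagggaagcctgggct
G0s2: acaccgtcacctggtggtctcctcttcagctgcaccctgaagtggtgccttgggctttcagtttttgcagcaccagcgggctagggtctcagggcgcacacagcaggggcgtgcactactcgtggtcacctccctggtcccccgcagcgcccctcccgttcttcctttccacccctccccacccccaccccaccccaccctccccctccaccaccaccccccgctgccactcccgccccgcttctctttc
Pnpla3: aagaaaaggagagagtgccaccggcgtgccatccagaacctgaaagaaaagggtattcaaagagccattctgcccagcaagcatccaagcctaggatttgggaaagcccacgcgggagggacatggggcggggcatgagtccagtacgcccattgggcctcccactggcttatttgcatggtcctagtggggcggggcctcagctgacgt

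Of the 10 genes, 9 had an entry in that table, and Cidea had none. In the 250 bases before each listed start, AGGTCA on either strand was found for Plin2, for the upstream start of Plin5 and for Hsd17b13, and 14.0% of all 32817 promoter windows of this length held it. AGGTCA followed by any 1 base and another AGGTCA was found for none of them, and in 0.0335% of all windows. The E-box CACGTG was found for none of them (6.02% of all windows), and the TATA element TATAAA for Cideb alone (12.4% of all windows). No match overlapped another, and the matches describe the letters of the windows only.

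Between 20086004 and 22495449 estimated counts were deposited per mouse, and 13619 genes were tested. Counts were scaled to CPM, the count a gene would have if every library held the same total, after TMM, a factor for differences in library composition. Without that factor, the median log2 fold change over all genes tested was 0.36 for NASH against Control in place of 0.013, so a change near that size depends on the scaling. Levels of different genes are compared in TPM, which sums to the same total in every library and takes transcript length into account. The hepatocyte markers Alb, Apoa1, Ttr, Hnf4a, Cps1, Asgr1, Serpina1c and Tat were present in all 9 livers, with a summed CPM between 121407 and 144560 for Control, between 73953 and 104389 for NASH and between 85770 and 114664 for NASH+Exercise. The 8 macrophage markers had a sum between 88.4 and 160 CPM for Control, between 995 and 1136 for NASH and between 760 and 895 for NASH+Exercise. In bulk liver, fewer cells of a type and less RNA per cell cannot be told apart, and the part of these cell types in the values that follow was not tested.

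In Control liver Plin2 was the most abundant of the 10 transcripts, with 1387 ± 373 TPM (SD, n = 3). G0s2 followed with 1023 ± 160 TPM, and the ranges of these transcripts overlapped. Hsd17b13 (629 ± 178 TPM) and Cideb (321 ± 2.20 TPM) came next and did not overlap with each other or with G0s2. Plin5 (123 ± 7.51 TPM) and Pnpla2 (97.6 ± 28.3 TPM) overlapped, as did Cidec (18.1 ± 13.7 TPM) and Plin4 (13.6 ± 4.17 TPM). Pnpla3 (0.320 ± 0.157 TPM) and Cidea (0.137 ± 0.0153 TPM) stood at the bottom. In NASH liver Hsd17b13 led with 805 ± 16.0 TPM, ahead of Plin2 (478 ± 83.8 TPM) and Cideb (312 ± 27.2 TPM), and G0s2 had moved to the fourth place with 85.2 ± 44.2 TPM, where its range overlapped with that of Pnpla2. In NASH+Exercise liver Hsd17b13 was again first (539 ± 125 TPM), and the ranges of Plin2 (304 ± 81.9 TPM) and Cideb (299 ± 10.7 TPM) overlapped.

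**Figure D1:**
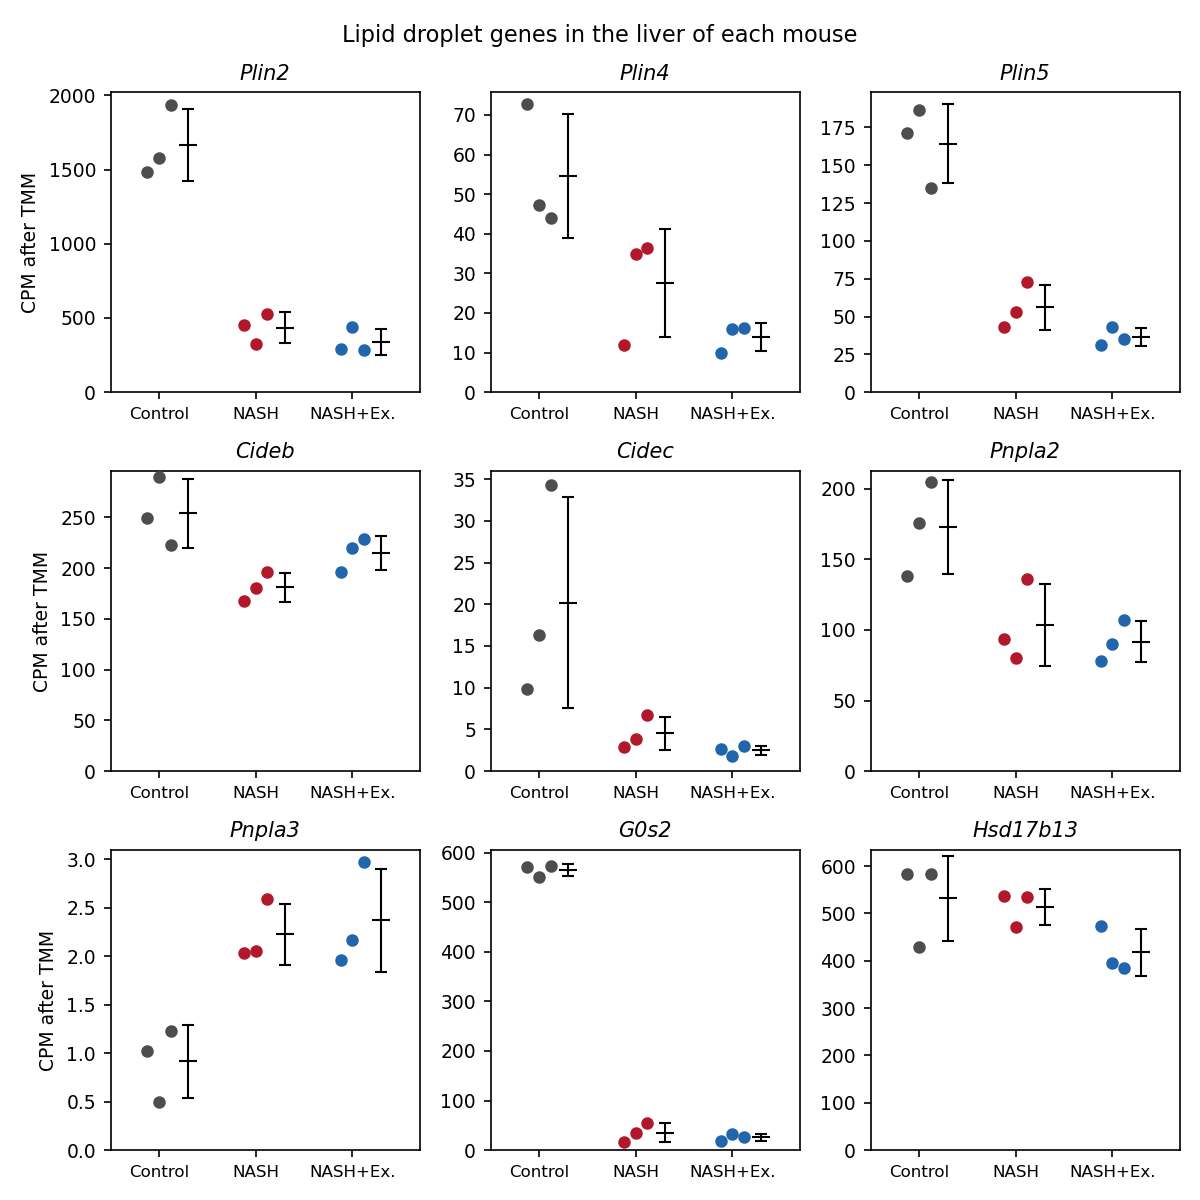
CPM after TMM of the 9 tested genes in each liver (points), with the group mean and SD (bars) on axes that start at 0. Plin2, Plin4, Plin5, Cidec, Pnpla2 and G0s2 were lower in all 6 Ath diet livers than in every Control liver. Pnpla3 was higher in all 6, and Hsd17b13 overlapped between the 3 groups. Of all genes tested, 22.2% lay below Control without overlap in NASH and 17.0% in NASH+Exercise, and 27.4% and 21.5% lay above.

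Against the 13619 genes tested, the droplet genes stood as follows in the comparison of NASH with Control. The droplet genes were chosen with earlier results of these data known, so the shares of all genes are descriptive. Of the 9 tested, 4 were called lower, and 3.03% of all genes were. Of the same 9, 1 was called higher, and 15.3% of all genes were. The adjusted p alone was under 0.05 for 7 of 9, beside 35.6% of all genes. In 7 of 9 every NASH liver lay below every Control liver in CPM, beside 22.2% of all genes. On the TPM scale, 4 of these 7 kept groups that did not overlap, beside 5.59% of all genes that lay so, and the groups of Plin4, Cideb and Pnpla2 overlapped. The median log2 fold change over the 9 genes was -0.98, with 0.013 over all genes tested.

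Plin2 (Entrez 11520, chr4:86626910-86670217 in GRCm38.p6, minus strand) encodes the perilipin that coats most droplets of hepatocytes and of lipid-laden macrophages. Its CPM in Control replicates 3, 4 and 29 was 1481, 1575 and 1939. In NASH replicates 5, 19 and 20 it was 452, 325 and 529, and in NASH+Exercise replicates 8, 18 and 22 it was 288, 438 and 282. The Ath diet livers thus lay below all Control livers, and NASH and NASH+Exercise overlapped. The log2 fold change was -1.93 for NASH against Control (SE 0.24, adjusted p = 0.000147, quasi-likelihood test of edgeR, adjusted by Benjamini-Hochberg). With training it was -0.37 relative to NASH (SE 0.23, edgeR adjusted p = 0.463), and against Control it was -2.31 (SE 0.24, edgeR adjusted p = 9.31e-05). The 8 macrophage markers, genes of another cell type that uses Plin2, were all called higher against Control in NASH and in NASH+Exercise. Of all genes tested, 15.3% were called higher in NASH and 10.4% in NASH+Exercise. The part of macrophages in the Plin2 level was not tested.

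Plin5 (Entrez 66968, chr17:56111597-56117606, minus strand) encodes the perilipin of oxidative tissues, which ties droplets to mitochondria. It had 171, 186 and 135 CPM in Control replicates 3, 4 and 29, and 43.0, 52.7 and 72.5 CPM in NASH replicates 5, 19 and 20. NASH+Exercise replicates 8, 18 and 22 had 31.0, 42.8 and 34.9 CPM. This was the only tested member of the 10 whose NASH+Exercise livers all lay below all NASH livers in CPM, by a margin of 42.8 against 43.0 between the nearest mice, and 14.9% of all genes tested lay so. The log2 fold change for NASH+Exercise against NASH was -0.63 (SE 0.21, unadjusted p = 0.0113, edgeR adjusted p = 0.209). Among 15 alternative analyses its adjusted p ranged from 0.0417, with limma on log2(TPM + 1), to 0.500, and the fold threshold was not passed in any. For NASH against Control the log2 fold change was -1.55 (SE 0.21, edgeR adjusted p = 0.000265), and for NASH+Exercise against Control it was -2.18 (SE 0.21, edgeR adjusted p = 6.68e-05).

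Plin4 (Entrez 57435, chr17:56100587-56109948, minus strand), a perilipin known mainly from adipose tissue and muscle, lies next to Plin5 with a gap of 1648 bases. Control replicates 3, 4 and 29 had 72.7, 47.3 and 44.1 CPM, NASH replicates 5, 19 and 20 had 11.9, 34.8 and 36.3 CPM, and NASH+Exercise replicates 8, 18 and 22 had 9.95, 15.9 and 16.1 CPM. NASH replicate 5 stood with the trained livers and the other 2 NASH livers stood nearer to Control. The log2 fold change for NASH against Control was -0.98 (SE 0.39, edgeR adjusted p = 0.0777), which DESeq2 put at -1.02 with adjusted p values of 0.0142 (6 mice) and 0.0175 (9 mice), past both thresholds. For NASH+Exercise against NASH it was -0.99 (SE 0.40, unadjusted p = 0.0339, edgeR adjusted p = 0.283), and for NASH+Exercise against Control Plin4 fell by 1.97 on the log2 scale (SE 0.40, edgeR adjusted p = 0.00655).

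Cidec (Entrez 14311, chr6:113424634-113435760, minus strand), also called FSP27, promotes the growth of large droplets. Its CPM was 9.87, 16.3 and 34.3 in Control replicates 3, 4 and 29, 2.95, 3.84 and 6.76 in NASH replicates 5, 19 and 20, and 2.62, 1.84 and 2.97 in NASH+Exercise replicates 8, 18 and 22. The Control livers differed among themselves more than those of any other member, with a coefficient of variation of 75.5% in TPM. Cidec fell by 2.16 on the log2 scale in NASH (SE 0.46, edgeR adjusted p = 0.00529) and, without Control replicate 29, fell by 1.59 (adjusted p = 0.00757). Of the 6 adipocyte markers in the files, Adipoq (4 counts), Plin1 (2 counts) and Ucp1 (1 count) were counted in that liver and in no other of the 9. Lipe was highest there among the Control livers (17.6 CPM, with 15.7 and 17.2 CPM in replicates 3 and 4). Cfd (1 count) and Adrb3 (7.30 CPM) were lower there than in the other Control livers. The 6 summed to between 25.3 and 28.9 CPM in Control, 19.7 and 27.8 in NASH and 21.4 and 27.2 in NASH+Exercise, and their part in the Cidec level was not tested. For NASH+Exercise against NASH the log2 fold change was -0.86 (SE 0.48, edgeR adjusted p = 0.430), and against Control it was -3.03 (SE 0.49, edgeR adjusted p = 0.00163), or -2.43 without Control replicate 29 (adjusted p = 0.00148).

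Cideb (Entrez 12684, chr14:55754052-55758424, minus strand), the CIDE protein of normal hepatocytes, also takes part in loading lipid onto VLDL. Control replicates 3, 4 and 29 had 250, 289 and 222 CPM, NASH replicates 5, 19 and 20 had 167, 180 and 196 CPM, and NASH+Exercise replicates 8, 18 and 22 had 196, 220 and 229 CPM. The log2 fold change for NASH against Control was -0.49 (SE 0.14, edgeR adjusted p = 0.0178), short of the fold threshold, and it was -0.12 without TMM factors and -0.045 on log2(TPM + 1). Between NASH+Exercise and NASH it was 0.25 (SE 0.14, edgeR adjusted p = 0.414) and -0.054 with limma on log2(TPM + 1). The Cideb gene overlaps Nop9 and Ltb4r2, and its deposited counts were not whole numbers in 9 of 9 libraries.

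Cidea, the CIDE gene of brown fat that appears in fatty livers, was listed with 2 counts in each Control liver, with 2, 1 and 0 counts in NASH replicates 5, 19 and 20, and with 0 counts in all NASH+Exercise livers. A count of 0 allows up to 3 counts, which is 0.131 to 0.146 CPM in the NASH+Exercise livers, and all groups were at or under that limit. No fold change is given for it, and these limits cover counting error only.

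G0s2 (Entrez 14373, chr1:193272160-193273188, minus strand) showed the widest difference of the 10. Control replicates 3, 4 and 29 had 570, 551 and 574 CPM, which is close agreement between mice. NASH replicates 5, 19 and 20 had 16.4, 34.3 and 55.1 CPM, and NASH+Exercise replicates 8, 18 and 22 had 18.6, 32.7 and 27.2 CPM. G0s2 fell 16.0-fold in NASH (log2 fold change -4.00, SE 0.40, edgeR adjusted p = 7.54e-05) and 21.6-fold in NASH+Exercise against Control (log2 fold change -4.43, SE 0.41, edgeR adjusted p = 8.48e-05). For NASH+Exercise against NASH the log2 fold change was -0.43 (SE 0.37, edgeR adjusted p = 0.618), and without NASH replicate 20 it was 0.047.

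Pnpla2 (Entrez 66853, chr7:141455188-141460743, plus strand), the gene of ATGL, had 138, 175 and 204 CPM in Control replicates 3, 4 and 29. The values were 93.8, 80.3 and 136 CPM in NASH replicates 5, 19 and 20 and 78.2, 89.7 and 107 CPM in NASH+Exercise replicates 8, 18 and 22. The highest NASH liver, 136 CPM, was just under the lowest Control liver. The log2 fold change was -0.74 for NASH against Control (SE 0.22, edgeR adjusted p = 0.0215) and -0.92 for NASH+Exercise against Control (SE 0.22, edgeR adjusted p = 0.0107), both short of the fold threshold. Without Control replicate 3 the latter was -1.05 (adjusted p = 0.0107) and without NASH+Exercise replicate 22 it was -1.04 (adjusted p = 0.0131), past both thresholds. Relative to NASH, the trained livers had -0.18 (SE 0.21, edgeR adjusted p = 0.745).

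Pnpla3 (Entrez 116939, chr15:84167776-84189521, plus strand) encodes the lipase relative called adiponutrin, a gene known to be driven by SREBP-1c. It was scarce, with 9.43 to 61.5 estimated counts per library. Control replicates 3, 4 and 29 had 1.02, 0.500 and 1.22 CPM, NASH replicates 5, 19 and 20 had 2.04, 2.06 and 2.59 CPM, and NASH+Exercise replicates 8, 18 and 22 had 1.96, 2.17 and 2.97 CPM. All 6 Ath diet livers lay above all Control livers. Of all genes tested, 27.4% lay above Control without overlap in CPM for NASH and 21.5% for NASH+Exercise. Pnpla3 rose by a log2 fold change of 1.27 in NASH (SE 0.33, edgeR adjusted p = 0.0124) and of 1.36 in NASH+Exercise against Control (SE 0.33, edgeR adjusted p = 0.0124). The call for NASH was lost without Control replicate 4 (log2 fold change 0.97, adjusted p = 0.0350) and with limma on log2(TPM + 1) (0.59, adjusted p = 0.00244). With that limma fit the call against Control was also lost for NASH+Exercise (0.49, adjusted p = 0.0120). The trained livers differed from NASH by a log2 fold change of 0.087 (SE 0.30, edgeR adjusted p = 0.923).

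Hsd17b13 (Entrez 243168, chr5:103955442-103977388, minus strand) encodes a retinol dehydrogenase of the droplet surface. Its CPM was 583, 428 and 584 in Control replicates 3, 4 and 29, 537, 471 and 534 in NASH replicates 5, 19 and 20, and 474, 395 and 385 in NASH+Exercise replicates 8, 18 and 22. The 3 groups overlapped in CPM. In TPM, every NASH liver (795 to 823 TPM) lay above every Control liver (430 to 773 TPM), as did 50.2% of all genes tested on that scale. The log2 fold change was -0.049 for NASH against Control (SE 0.16, edgeR adjusted p = 0.844), and 0.28 without TMM factors. For NASH+Exercise it was -0.30 against NASH (SE 0.16, edgeR adjusted p = 0.403) and -0.35 against Control (SE 0.16, edgeR adjusted p = 0.144).

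**Figure D2:**
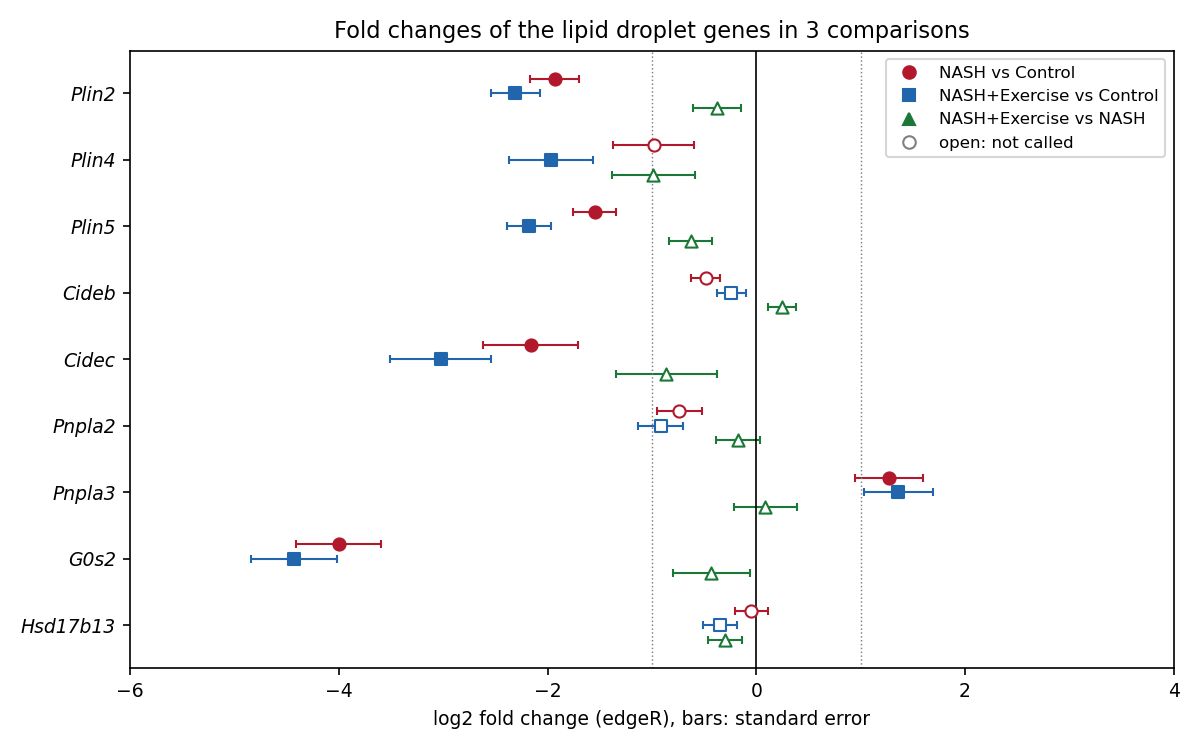
Log2 fold changes of the 9 tested genes with their standard errors in 3 comparisons, filled where a gene was called and open where it was not, with dotted lines at the fold threshold. All points of NASH+Exercise against NASH are open, G0s2 reaches -4.00 and -4.43 against Control, and Pnpla3 alone lies above 1.

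In the comparison of NASH+Exercise with NASH, which asks what training changed on the same diet, edgeR called 0 of 9 lower and 0 of 9 higher. Of all genes tested, 0.0367% were called lower and 0.103% higher, and 0.162% had an adjusted p under 0.05. An unadjusted p under 0.05 was found for 2 of 9, Plin4 and Plin5, and for 15.3% of all genes tested. DESeq2 on these 6 mice also called 0 of 9, and of the genes it fitted 0.718% lower and 0.445% higher. With all 9 mice DESeq2 called 0 of 9, beside 0.612% lower and 0.365% higher. Limma on log2(TPM + 1) called 0 of 9, beside 0.624% lower and 0.184% higher, and on log2(TPM + 0.1) 0 of 9, beside 0.0808% and 0.103%. In the fit 7 of 9 were lower in NASH+Exercise, beside 54.9% of all genes tested, and the median over the 9 was -0.37, with -0.033 over all genes. In TPM, where the median log2(TPM + 1) difference over all genes tested was -0.26, the NASH+Exercise livers lay below all NASH livers for Cidec, Pnpla2 and Hsd17b13 as well as Plin5. These are 4 of 9, beside 37.6% of all genes tested that lay so in TPM. The NASH mice of this comparison are those set against Control before.

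NASH+Exercise livers were also set against Control livers, a comparison that shares its mice with both others, so the values for each gene are not independent of those given before. Here 5 of 9 were called lower (3.07% of all genes) and 1 of 9 higher (10.4% of all genes). The adjusted p alone was under 0.05 for 7 of 9 (25.1% of all genes). In 6 of 9 all NASH+Exercise livers lay below all Control livers in CPM (17.0% of all genes). The median log2 fold change over the 9 was -1.97, with 0.0032 over all genes tested.

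The summed TPM of the 10 genes was 3516, 2947 and 4376 in Control replicates 3, 4 and 29, which is 0.361% ± 0.0720 of all TPM. It was 1753, 1752 and 1987 in NASH replicates 5, 19 and 20, and 1411, 1350 and 1098 in NASH+Exercise replicates 8, 18 and 22. No 2 groups overlapped in this sum, nor in the sum of FPKM, which was 981 to 1145 for NASH and 684 to 830 for NASH+Exercise. In CPM after TMM, a scale added after seeing the data, the sums of NASH (1184 to 1569) and NASH+Exercise (1086 to 1238) overlapped, and both lay below Control (3270 to 3738). Its make-up differed too. Plin2 and G0s2 held 38.1% ± 3.15 and 28.5% ± 1.42 of the sum in Control, and 26.0% ± 3.30 and 4.57% ± 2.14 in NASH. Hsd17b13 held 17.2% ± 2.48 in Control and 44.2% ± 3.67 in NASH, and the share of Cideb was 9.10% ± 1.72 for Control, 17.1% ± 1.71 for NASH and 23.5% ± 2.36 for NASH+Exercise (SD, n = 3 in each). Hsd17b13 and Cideb themselves were not called in any comparison.

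**Figure D3:**
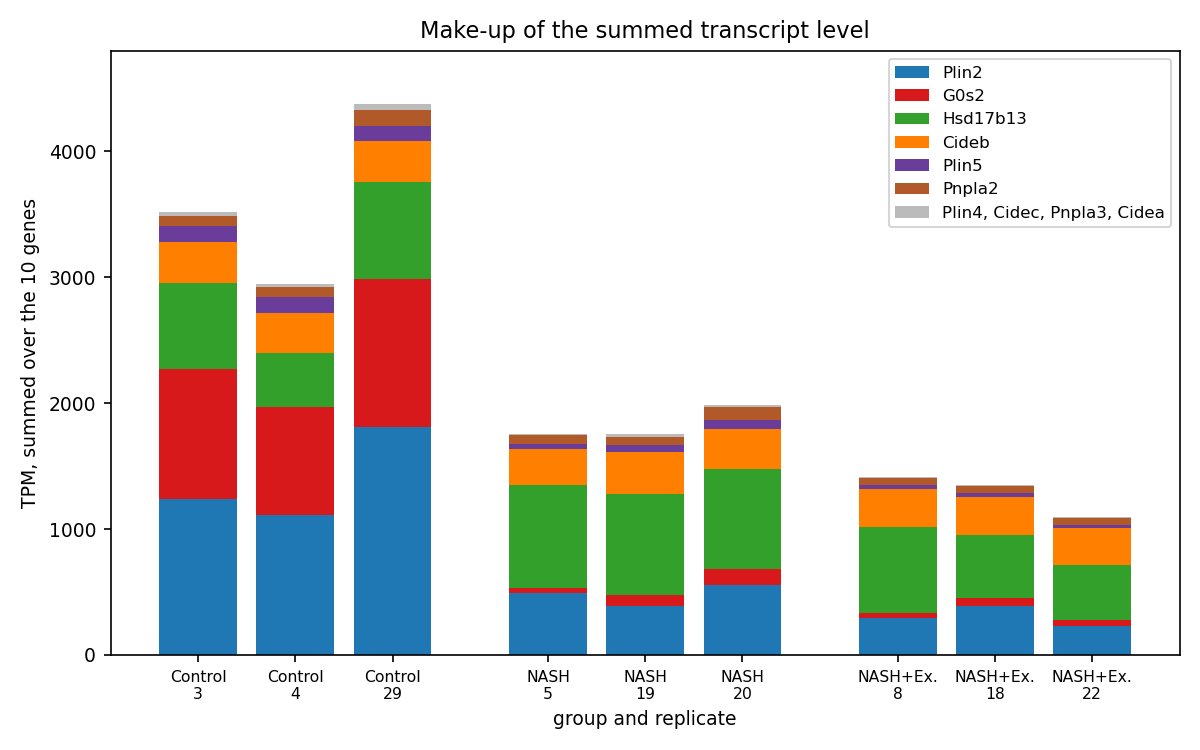
TPM of the 10 genes stacked for each liver, with the 4 scarcest drawn together in grey. The Control sums lie between 2947 and 4376, the NASH sums between 1752 and 1987 and the NASH+Exercise sums between 1098 and 1411, and the parts of Plin2 and G0s2 shrink most.

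Ratios within a liver do not depend on the scaling between libraries. The TPM ratio of the inhibitor G0s2 to its target Pnpla2 was 13.3, 10.1 and 9.05 in Control replicates 3, 4 and 29, and 0.563, 1.37 and 1.30 in NASH replicates 5, 19 and 20. In NASH+Exercise replicates 8, 18 and 22 it was 0.766, 1.17 and 0.820. The geometric mean was 10.7-fold lower in NASH than in Control, where the groups did not overlap, and NASH and NASH+Exercise overlapped (two-sided exact permutation p = 0.1 and 0.8, adjusted over 12 tests to 0.15 and 0.8). The smallest p that 3 mice against 3 can give is 0.1, so no ratio could pass 0.05.

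Cidec encodes a droplet-enlarging protein and Cideb the CIDE protein of normal hepatocytes. The TPM ratio of the Cidec transcript to the Cideb transcript was 0.0262, 0.0381 and 0.105 for Control replicates 3, 4 and 29 and 0.0114, 0.0143 and 0.0230 for NASH replicates 5, 19 and 20. For NASH+Exercise replicates 8, 18 and 22 it was 0.00854, 0.00535 and 0.00887. No 2 groups overlapped, and the geometric mean of NASH+Exercise was 2.10-fold lower than that of NASH (two-sided exact permutation p = 0.1, the smallest possible, adjusted p = 0.15). The ratio of Plin2 to Plin5 was 11.4 ± 3.60 for Control, 8.62 ± 2.50 for NASH and 9.86 ± 1.23 for NASH+Exercise, and all groups overlapped (SD, n = 3, exact permutation p = 0.4 for NASH against Control).

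**Figure D4:**
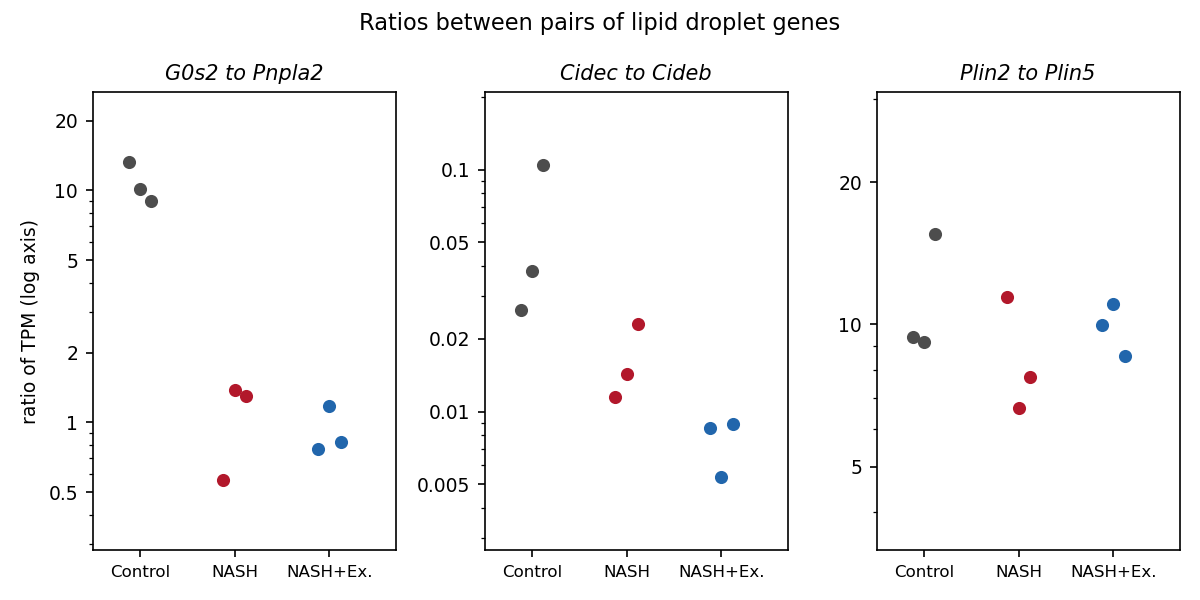
TPM ratios within each liver on log axes, a panel for each pair of genes. The ratio of G0s2 to Pnpla2 is 9.05 or more in the Control livers and 1.37 or less in the others, that of Cidec to Cideb separates all 3 groups, and that of Plin2 to Plin5 overlaps.

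The place of each mouse within its group was counted over these genes. NASH replicate 20 had the highest CPM of its group for 8 of 9 genes and NASH replicate 5 the lowest for 6 of 9. Control replicate 29 was highest for 6 of 9, but each Control mouse was lowest for 3 of 9. NASH+Exercise replicate 8 was lowest for 6 of 9, replicate 22 was highest for 5 and lowest for 2, and replicate 18 was highest for 3 and lowest for 1. The genes share libraries, so this is a description of 9 livers.

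Further genes that act on the same droplets were read from the same fit, in lists drawn up by role. The lists were chosen with earlier results of these data known, so the shares of all genes beside them are descriptive. The other droplet proteins (20 tested) had 3 genes called lower and 1 called higher in NASH against Control, beside 3.03% and 15.3% of all genes tested, with a median log2 fold change of -0.32. Those lower were Fitm1 and Fitm2, which help lipid bud into droplets (-1.86 and -1.65, edgeR adjusted p = 0.000671 and 0.000113), and Mettl7b (-1.06, edgeR adjusted p = 0.00180). Lpcat1, which makes phosphatidylcholine, rose by 1.40 (edgeR adjusted p = 0.00212). Plin3, the perilipin found in most cells, had a log2 fold change of 0.70 and Hilpda, another inhibitor of ATGL, of -0.66, both short of the fold threshold. Plin1, the adipocyte perilipin, had 0 counts in 8 of 9 livers.

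Of 17 lipolysis and lysosomal genes tested, 6 were called lower (3.03% of all genes) and 1 higher (15.3% of all genes) in NASH, with a median of -0.52. Ces1d, a carboxylesterase, fell by 2.19 on the log2 scale, Abhd6, a lipase for monoglycerides, by 1.95 and Mgll, the enzyme for the last step of lipolysis, by 1.92 (edgeR adjusted p = 0.00236, 6.09e-05 and 0.000189). Lpl, the lipoprotein lipase, which lipid-laden macrophages also express, rose by 4.40 (edgeR adjusted p = 6.81e-05), from 7.34 to 17.5 CPM in Control to 165 to 371 CPM in NASH. The coactivator gene Abhd5 (-0.29), the hormone-sensitive lipase gene Lipe (-0.35) and the lysosomal lipase gene Lipa (-0.52) were not called. Of these, Lipa alone had an adjusted p under 0.05 (edgeR adjusted p = 0.0150). In NASH livers, -4.00 for the inhibitor G0s2 thus stood beside -0.74 for the lipase Pnpla2 and -0.29 for the coactivator Abhd5.

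Of 19 genes of triglyceride and steryl ester synthesis, 2 were called lower and 1 higher in NASH, against the same 3.03% and 15.3% of all genes, with a median of -0.32. Mogat1, a monoacylglycerol acyltransferase, was called lower and had 10 to 21 counts in Control but at most 3 in NASH, so no fold is given. Mttp, which loads lipid onto VLDL, fell by 1.18 on the log2 scale and Soat1, which esterifies cholesterol and is prominent in macrophages, rose by 2.74 (edgeR adjusted p = 0.000367 and 7.98e-06). Dgat1 (-0.88, edgeR adjusted p = 0.00130) and Dgat2 (-0.0037, edgeR adjusted p = 0.991), which make triglyceride, were not called. Dgat1 was short of the fold threshold alone. Of 16 regulators, 1 was called higher and 1 lower beside these shares of all genes. Srebf1, the gene of SREBP-1, rose by 1.93 and Creb3l3, a fasting factor of the liver, fell by 1.01 (edgeR adjusted p = 3.41e-05 and 0.000747), with a median of -0.22 over the list. Ppara, the gene of PPAR alpha, had a log2 fold change of -0.90 in NASH against Control (edgeR adjusted p = 0.00206). In NASH+Exercise against Control it was -0.77 (edgeR adjusted p = 0.00670), and both were short of the fold threshold.

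In NASH+Exercise against NASH, edgeR called 0 genes of these 4 lists in either direction (0.0367% of all genes lower and 0.103% higher), and the medians lay between -0.10 and 0.18. Against Control, NASH+Exercise livers had 2 other droplet proteins called lower, Fitm2 (-1.43) and Fitm1 (-1.16), and 0 higher, where 3.07% of all genes were called lower and 10.4% higher. In lipolysis 5 were called lower and 1 higher, among them Ddhd2, a triglyceride lipase best known from neurons (-1.76), Nceh1, a cholesteryl ester hydrolase (-1.74), Mgll (-1.68) and Lpl (3.47). In synthesis 4 were called lower and 1 higher, with Gpat3 and Lpin2 of the glycerol phosphate pathway (-1.52 and -1.33) and Soat1 (2.10). Mogat1, with 1 to 7 counts in the trained livers, was among those called lower. Among the regulators Creb3l3 was called lower, barely past the fold threshold, and the lipogenic factor gene Thrsp (3.32) and Srebf1 (2.74) were called higher, where Thrsp ranged from 20.6 to 199 CPM between the 3 trained livers.

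**Figure D5:**
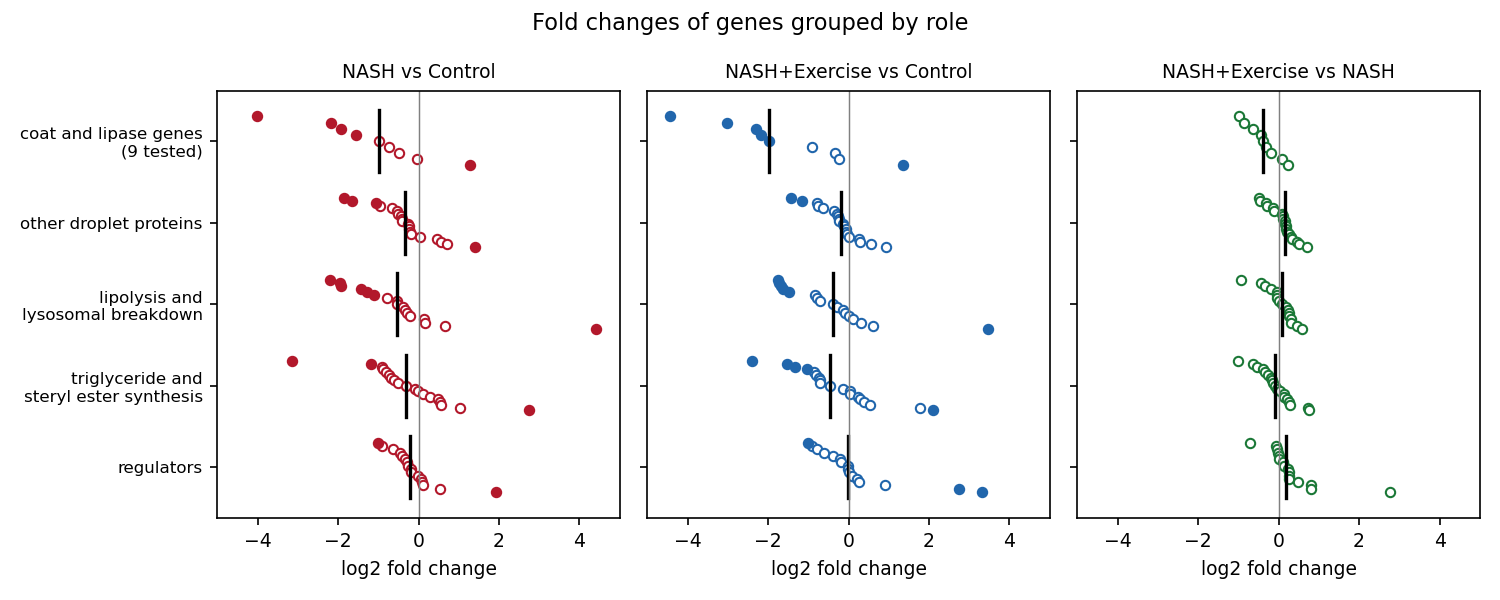
Log2 fold changes of the droplet genes and of the 4 further lists, a panel for each comparison, with a point for each tested gene (filled where called) and a black line at the median of each list. Against Control the lists hold points called on both sides of 0, except that no other droplet protein was called higher in NASH+Exercise, and against NASH no point of NASH+Exercise is filled.

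The genes next to the droplet genes on the chromosome were examined for shared changes. Plin5 lies 2071 bases from Lrg1, an acute phase gene, which had a log2 fold change of 0.98 in NASH against Control (edgeR adjusted p = 0.00879), opposite in sign to that of Plin5. On either side of G0s2, Lamb3, a laminin gene 21164 bases away, fell by 2.69 (edgeR adjusted p = 0.000218) and Hsd11b1 had a log2 fold change of -0.71. Hsd17b11, the paralogue beside Hsd17b13, had -0.44, Samm50 beside Pnpla3 had -0.36, and Cidec's neighbours Rpusd3 and Jagn1 had -0.57 and -0.43. Haus6 and Dennd4c beside Plin2 (0.30 and 0.053) and Rplp2 and Cracr2b beside Pnpla2 (-0.25 and 0.31) were not called. Dhrs1 and Ltb4r1 beside Cideb (-0.37 and -0.013) and Klhl8 beside Hsd17b13 (-0.17) were not called either. Ubxn6 beside Plin4 (-0.57) and Impa2 and Tubb6 beside Cidea (-0.76 and 0.97) were short of the fold threshold alone (edgeR adjusted p = 0.0182, 0.0422 and 0.00174). In NASH+Exercise against Control, Impa2 (-1.19, edgeR adjusted p = 0.00759) and Lamb3 (-3.32, edgeR adjusted p = 0.000141) were called lower, and Tubb6 (1.09, edgeR adjusted p = 0.00125) and Lrg1 (1.43, edgeR adjusted p = 0.00152) higher. Among genes that overlap a member, Hdgfl2 at the end of Plin4 had 0.011, and Nop9 and Ltb4r2 at Cideb had -0.21 and -0.22. The pseudogene Gm12551, which overlaps Plin2, and Pnpla5, next to Pnpla3, were too low to be tested.

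For each tested member, the gene outside the list with the most similar profile over the 9 livers was found, as the smallest root-mean-square distance between standardized log2 CPM values. For G0s2 it was Pex11a (distance 0.0837), a gene of peroxisome division, with 264 ± 16.0 CPM for Control, 50.6 ± 20.6 for NASH and 43.3 ± 5.58 for NASH+Exercise (SD, n = 3 each). For Plin5 it was Tmem82 (0.106), with 46.7 ± 3.27, 26.3 ± 3.28 and 20.3 ± 1.27 CPM in the same order. The nearest gene was 4930579G24Rik for Plin2 (0.0818), 2900026A02Rik for Cidec (0.195), Atp5j2 for Cideb (0.154), Adrb1 for Pnpla3 (0.225) and Hic2 for Pnpla2 (0.239). It was Rsl24d1 for Plin4 (0.263) and Kiz for Hsd17b13 (0.283). Standardized values leave out the size of a change. Rsl24d1 had means of 16.7, 15.1 and 14.6 CPM for Control, NASH and NASH+Exercise, where Plin4 had 54.7, 27.6 and 14.0 CPM. Each gene named is the closest of all those tested outside the list, and how small a distance unrelated genes reach was not tested. Within the list, G0s2 and Plin5 were each other's nearest member (0.250), as were Cidec and Pnpla2 (0.362).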

How the data were processed

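Liver mRNA of 9 mice was sequenced, with 1 library per mouse and 3 mice in each group, and groups were taken from the labels. The authors deposited 3 values for each gene, the estimated count without normalization, the FPKM and the TPM. The submitters' processing notes name HISAT2 2.1.0, Bowtie2 2.2.5, RSEM 1.2.8 and GRCm38.p6. Strand setting and annotation are not given in the sources used here, so reads of overlapping genes cannot be told apart. RefSeq named 17728 of the 17846 genes.

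Estimated counts were rounded, filtered with edgeR's filterByExpr (at least 10 counts, total 15), scaled by TMM and fitted for all 9 mice with edgeR 4.0.16 (robust quasi-likelihood, R 4.3.3). P-values were adjusted by Benjamini-Hochberg over 13619 genes, and calls needed an adjusted p below 0.05 together with a log2 fold change beyond 1 in either direction. Estimated counts totalled 20086004 to 22495449 per mouse, and the spread between 3 mice limits the precision. Ratios and sums used TPM as deposited, and ratios were tested with exact two-sided permutation tests. FPKM values as deposited and CPM after TMM served as alternatives for the sum, the latter added after seeing the data. DESeq2 1.42.0, limma 3.58.1 on log2(TPM + 1) and log2(TPM + 0.1), RLE factors, library size alone, no filter, 6-mouse fits and leaving out each mouse were tried. The fits were tested on simulated counts with changes beyond the fold threshold placed in NASH alone, so smaller changes were not covered.

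The 10 genes and all lists were chosen with earlier results of these data known. Named genes were the 10 members, 8 fixed genes (Abhd5, Lipe, Plin1, Plin3, Dgat1, Dgat2, Lipa, Hilpda), up to 3 called genes of largest change per list and direction, chromosome neighbours, and the nearest profile of each member. Ddhd2, Nceh1 and other genes of the lists appear by that rule. Ppara was named in addition, after seeing the data.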

Additional observations from a re-analysis of the deposited data

How the results depend on the processing

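Of 405 values of the 9 tested genes under alternative analyses, 381 kept their direction and their side of the thresholds, 15 turned in direction, 5 lost a call and 4 gained one. Plin2, Plin5, Cidec and G0s2 were called lower in NASH against Control under all 15 alternatives. Hsd17b13 in NASH against Control was 0.40 with limma on log2(TPM + 1), with or without the filter, and on log2(TPM + 0.1), 0.28 with library size alone, and -0.20 to 0.018 when a mouse was left out, highest without Control replicate 3. For NASH+Exercise against NASH, Cideb was -0.054 with limma at either pseudocount and with no filter. Pnpla3 was -0.10 with limma on log2(TPM + 1) and with no filter, -0.19 on log2(TPM + 0.1), -0.13 with library size alone, and -0.10 (without NASH+Exercise replicate 22) to 0.21 when a mouse was left out. Leaving out a mouse gave -0.77 to 0.047 for G0s2 and -0.31 to 0.075 for Pnpla2, highest without NASH replicate 20 for both. It gave -0.57 to 0.078 for the log2 ratio of G0s2 to Pnpla2 in the same comparison, above 0 without NASH replicate 19 (0.078) or 20 (0.039), and -0.30 to 0.079 for that of Plin2 to Plin5 in NASH+Exercise against Control, highest without Control replicate 29. Over all genes tested, the median for NASH against Control was 0.34 with limma on log2(TPM + 1). It was 0.44 on log2(TPM + 0.1) and 0.36 with library size alone. For NASH+Exercise against NASH the medians in these settings were -0.26, -0.33 and -0.23. The cause of the turns in direction was not tested.

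Over all genes, edgeR called 19 for NASH+Exercise against NASH, and DESeq2 called 204 (6 mice) or 174 (9 mice), limma on log2(TPM + 1) called 110, or 38 with no filter, and leaving out a mouse gave 0 to 34. Of the 19, 5 were lower and 14 higher, of the 204 of DESeq2 126 and 78, of its 174 109 and 65, and of the 110 of limma 85 and 25. In NASH against Control edgeR called 412 lower and 2082 higher, and limma on log2(TPM + 0.1) 187 and 2946. In NASH+Exercise against Control, 1836 genes were called, 1068 or 1031 with limma on log2(TPM + 1), with or without the filter, and 1808 on log2(TPM + 0.1). The adjusted p alone gave 4846 genes in NASH and 3423 in NASH+Exercise against Control. Cidea (at most 2 counts), Pnpla3 (9.43 to 61.5 counts) and Cidec (39 to 673 counts) had the lowest counts of the members. How far depth or the spread between 3 mice limited each member was not tested. No paired analysis was possible because the groups share no replicate numbers.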
